A study of Rattus norvegicus with 6 samples.

Results

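The Notch pathway genes examined were the receptors *Notch1*, *Notch2* and *Notch3*, the ligands *Dll1*, *Dll3*, *Jag1* and *Jag2*, and the target genes *Hes1*, *Hes5* and *Hey1*. They were chosen by gene symbol, and 9 of the 10 had a row among the 17337 gene names of the RNA-seq tables. The mRNA level of *Jag2* was not analysed here. PolyA-selected mRNA was sequenced from untreated neural progenitors, cultured from cortices of Sprague Dawley rats at embryonic day 14, of either sex, and grown with bFGF and EGF until after the second passage. There were 2 biological replicates, A and B, each sequenced as 2 technical libraries (A1 and A2, B1 and B2). All 4 libraries are of the same condition, so the comparisons are between genes and between the 2 cultures, and no test between groups was possible. Start-seq of these progenitors was not analysed here.

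Notch receptors are membrane proteins that are cut when a Delta-like or Jagged ligand on a neighbouring cell pulls on them. The freed intracellular part enters the nucleus, joins the DNA-binding protein RBPJ and switches on genes of the Hes and Hey families, which encode basic helix-loop-helix repressors. In the developing cortex these repressors hold down proneural genes, whose proteins in turn activate *Dll1*, and the loop keeps part of the cells as progenitors while their neighbours become neurons.

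The mRNA level is given as FPKM, fragments scaled to transcript length and library depth, so that levels of different genes can be compared. Means are over replicates A and B after averaging the technical libraries within each (n = 2). Library B2 was shallower than the others, with a mean read depth of 6.83 for each FPKM against 22.7 to 24.4. Every measured member still had a mean read depth of at least 124 in B2, and of at least 186 in the other libraries. A mean of 1 FPKM or more was reached by 10481 genes. Of these, 16 differed by 1 or more on the log2(FPKM + 1) scale in the technical pair of replicate A. In that of replicate B 293 did, so the spread between libraries labelled as technical was wider in B. The source of this spread was not tested.

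The cultures were checked against markers of cell types. The progenitor markers *Sox2*, *Nes*, *Vim*, *Pax6*, *Fabp7*, *Slc1a3* and *Prom1* were above 0 in every library, led by *Fabp7*, which encodes a fatty acid binding protein of radial glia, with a mean of 11840.5 FPKM. *Tubb3* led the 7 neuron markers with 118 FPKM, and their sum was 159 and 182 FPKM in A1 and A2 and 140.1 and 159.7 FPKM in B1 and B2. All 10 mural and mesenchymal markers had a higher mean log2 value in replicate B, and their summed level was 1337 and 1419 FPKM in A1 and A2 and 3041 and 4267 FPKM in B1 and B2. Among them *Tagln* was highest, with a mean of 868 FPKM, and *Rgs5* was listed at 0 in A1 and at 0.71 FPKM in B2. Of the oligodendrocyte lineage markers, whose sum was 264 and 289 FPKM in A1 and A2 and 701 and 359 FPKM in B1 and B2, *Olig1* was highest at 282 FPKM. The 8 endothelial markers summed to between 1.07 and 5.07 FPKM per library, with *Flt1* highest at 0.914 FPKM, and the 7 microglia markers to between 0.474 and 2.12 FPKM, with *Aif1* highest at 0.719 FPKM. In such bulk libraries fewer cells of a type and less RNA per cell cannot be told apart.

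The promoters of 3 members are shown because 2 of these genes, *Hes5* and *Dll1*, differed most between the cultures, and *Hes1* is the classical Notch target beside *Hes5*. *Dll1* was added after its values were seen. Each sequence is the 250 bases before the annotated start, 5′ to 3′ on the strand of the gene, from RefSeq on the GRCr8 build, whereas the positions of the genes further on are on rn6. The capitals mark TGGGAA, the core that RBPJ binds, or its reverse complement TTCCCA.

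Hes1, chr11:84213046-84213295, minus strand: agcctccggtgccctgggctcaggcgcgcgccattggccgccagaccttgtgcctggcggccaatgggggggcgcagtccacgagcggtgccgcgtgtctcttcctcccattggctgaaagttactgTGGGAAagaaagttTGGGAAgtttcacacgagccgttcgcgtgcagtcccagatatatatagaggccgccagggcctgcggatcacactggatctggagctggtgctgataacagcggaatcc
Hes5, chr5:170804327-170804576, plus strand: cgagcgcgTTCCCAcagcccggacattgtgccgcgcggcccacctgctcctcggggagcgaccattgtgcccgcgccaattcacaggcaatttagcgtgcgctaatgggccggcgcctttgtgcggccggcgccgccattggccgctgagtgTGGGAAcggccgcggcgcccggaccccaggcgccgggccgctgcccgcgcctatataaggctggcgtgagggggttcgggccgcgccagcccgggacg
Dll1, chr1:64993275-64993524, minus strand: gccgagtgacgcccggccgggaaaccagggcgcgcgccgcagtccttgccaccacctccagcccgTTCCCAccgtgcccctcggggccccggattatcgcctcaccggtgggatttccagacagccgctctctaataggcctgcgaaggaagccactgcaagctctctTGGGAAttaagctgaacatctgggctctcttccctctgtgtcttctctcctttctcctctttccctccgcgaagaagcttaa

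Distances are counted from the annotated starts, which were not checked against Start-seq. The paper reports moving many annotated rn6 starts on the basis of Start-seq, so distances from the starts in use may differ. In *Hes1* the core occurred in the same direction at 123 and 109 bases before the annotated start. *Hes5* held it at 98 bases before the start and, on the other strand, at 242 bases. *Dll1* held it at 82 bases before the start and, on the other strand, at 185 bases. Of 33469 RefSeq promoter windows of this length, 22.1% held at least 1 match on either strand and 2.71% held at least 2. The windows of *Notch1*, *Notch2*, *Notch3*, *Dll3*, *Jag1* and *Jag2* held 0 matches. *Hey1* had no entry. The N box CACNAG, a sequence that Hes proteins bind, was found 4 times in the *Hes1* window. It was found 4 times in that of *Notch1*, where a pair of matches on opposite strands overlapped, and once in that of *Notch3*. It was not found in those of *Hes5*, *Dll1*, *Dll3*, *Jag1*, *Jag2* and *Notch2*. At least 3 matches to it were found in 1.19% of all windows. TATATA stood 47 bases before the *Hes5* start and, as a pair of overlapping matches, 70 and 68 bases before the *Hes1* start, and 5.45% of all windows held it. A match of this length is a description of the letters and does not show that a protein binds there.

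Among the receptors, *Notch1* was the highest in every library. *Notch1*, which is on the minus strand of chromosome 3 of rn6 from 3905562 to 3951015, had 98.2 FPKM in A1, 78.4 FPKM in A2, 57.7 FPKM in B1 and 59.3 FPKM in B2. The libraries of A lay above those of B, and their means were 88.3 and 58.5 FPKM, 1.51-fold apart. The mean over the replicates was 73.4 ± 21.1 FPKM (SD, n = 2).

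*Notch3*, on the minus strand of chromosome 7 from 14138495 to 14189688, encodes a receptor best known from mural cells of vessels and is also found in neural progenitors. Its level was 32.7 and 26.8 FPKM in A1 and A2 and 14.6 and 20.6 FPKM in B1 and B2. The libraries of A were higher by 0.74 on the log2(FPKM + 1) scale, against technical differences of 0.28 within A and 0.47 within B. *Notch2*, which spans bases 200187184 to 200320402 of chromosome 2 (plus strand), had 24.9 and 21.4 FPKM in A and 20.8 and 21.0 FPKM in B. Its difference of 0.14 between the replicates was smaller than the 0.21 between A1 and A2, although the libraries did not overlap.

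*Notch1* made up 61.4 ± 1.49% of the summed receptor FPKM (SD, n = 2), between 58.8% in B2 and 63.0% in A1, and this share overlapped between the replicates. The share of *Notch2* was 16.0% and 16.9% in A1 and A2 and 22.3% and 20.8% in B1 and B2. The ratio of *Notch1* to *Notch2*, which does not depend on the scaling of a library, was 3.94 and 3.67 in A and 2.78 and 2.82 in B. The ratio of *Notch1* to *Notch3* was 3.002 and 2.93 in A and 3.95 and 2.88 in B, so here the replicates overlapped. The receptors thus differed between the cultures in their summed level, 141 FPKM in A and 97.0 FPKM in B, more than in the place of *Notch1* among them.

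Of the ligands, *Dll1* and *Dll3* were above *Jag1* in every library, by at least 2.37 times for *Dll1* and at least 3.16 times for *Dll3*, both reached in B2. *Dll1*, which encodes the Delta-like ligand presented by cells entering differentiation, spans bases 57318621 to 57326729 of chromosome 1 on the minus strand. *Dll1* had 128 FPKM in A1, 118 FPKM in A2, 68.8 FPKM in B1 and 43.1 FPKM in B2. Every library of A was higher than every library of B, and the means of 123 and 55.9 FPKM were 2.20-fold apart. On the log2(FPKM + 1) scale the difference was 1.16, against 0.12 between the technical libraries of A and 0.66 between those of B. With B2 left out it was 0.83, under the threshold of 1 used for all genes.

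*Dll3*, at bases 85485945 to 85493683 of chromosome 1 (plus strand), encodes a ligand that acts mainly inside the cell that makes it and dampens Notch activation there. Its level was 90.0, 93.3 and 88.7 FPKM in A1, A2 and B1 and 57.4 FPKM in B2. The values of A1, A2 and B1 were close, and the difference between the replicate means, 91.6 against 73.0 FPKM, rested on B2. *Jag1*, a Jagged ligand on the minus strand of chromosome 3 from 130079361 to 130114781, had 9.71 and 8.20 FPKM in A and 14.5 and 18.2 FPKM in B. It was the only member higher in each library of B than in each library of A, with means 1.82-fold apart and a log2 difference of 0.79 in favour of B.

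The makeup of the ligands therefore differed between the cultures. *Dll1* supplied 56.3% and 53.7% of the summed ligand FPKM in A1 and A2 and 40.0% and 36.3% in B1 and B2. *Dll3* supplied 39.4% and 42.5% in A and 51.6% and 48.4% in B, and *Jag1* 4.26% and 3.74% in A and 8.41% and 15.3% in B. The ratio of *Dll1* to *Dll3* was 1.43 and 1.26 in A and 0.776 and 0.751 in B, so that *Dll1* was the higher of the pair in A and the lower in B. The ratio of *Dll1* to *Jag1* was 13.2 and 14.4 in A and 4.76 and 2.37 in B. These sums leave out *Jag2*.

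Among the targets, *Hes5* was the highest of all 9 members in each library. *Hes5*, a short gene at bases 172364421 to 172365188 of chromosome 5 (plus strand), encodes a repressor that marks radial glia with active Notch. Its level was 397 FPKM in A1, 399.8 FPKM in A2, 197 FPKM in B1 and 162 FPKM in B2, a mean of 289 ± 154 FPKM (SD, n = 2) and rank 297 among the 17337 gene names. The libraries of A were far above those of B, with means of 398 and 179.9 FPKM, 2.21-fold apart. The log2 difference of 1.15 compares with technical differences of 0.01 within A and 0.28 within B.

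*Hes1*, at bases 74312837 to 74315249 of chromosome 11 (minus strand), encodes the related repressor whose level oscillates in progenitors. It had 59.5 and 60.8 FPKM in A1 and A2 and 54.1 and 42.4 FPKM in B1 and B2. The libraries did not overlap, but the difference of 0.32 between the replicates was no larger than the 0.34 between B1 and B2. *Hey1*, at bases 95320283 to 95322701 of chromosome 2 (plus strand), encodes a Hes-related repressor. It had 20.2, 18.4, 19.1 and 18.4 FPKM in A1, A2, B1 and B2, and was the only member whose libraries overlapped between A and B. Its log2 difference was 0.04, and it was -0.026 with A1 left out.

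The promoters of *Hes1* and *Hes5* both held a pair of RBPJ cores, unlike in direction and spacing, and binding to them was not measured. The mRNA levels of these genes differed between the cultures by unlike amounts, and a link to the cores was not tested. *Hes5* was 6.66 and 6.58 times *Hes1* in A1 and A2 and 3.65 and 3.83 times *Hes1* in B1 and B2, with close technical libraries and no overlap. *Hes5* was 83.3% and 83.5% of the summed target FPKM in A and 72.9% and 72.7% in B. Against *Sox2*, a transcription factor gene of progenitors, the ratio of *Hes5* was 0.711 and 0.676 in A and 0.486 and 0.456 in B.

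**Figure D1:**
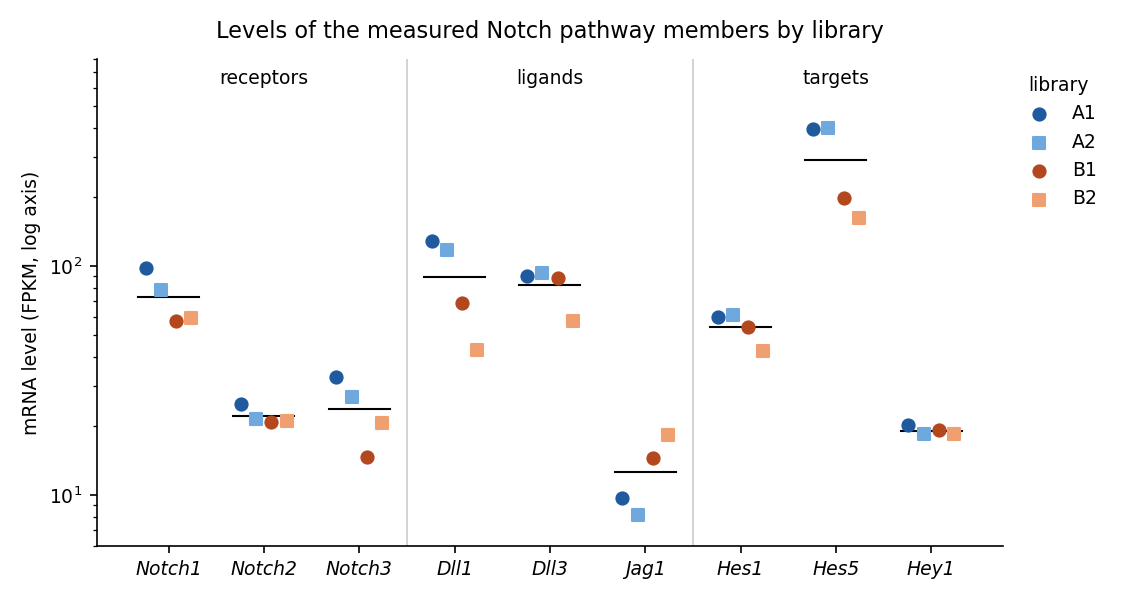
mRNA level of the 9 measured members in FPKM (log axis), in each RNA-seq library (points) with the mean of replicates A and B (black line). *Hes5* stands above all others at 162 to 399.8 FPKM, *Jag1* is the only gene with both libraries of B above those of A, and *Hey1* is nearly level at 18.4 to 20.2 FPKM.

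In the order of the mean levels, *Hes5* was followed by *Dll1*, *Dll3*, *Notch1*, *Hes1*, *Notch3*, *Notch2*, *Hey1* and *Jag1*. The ranges over the 4 libraries were separate for 4 of the 8 neighbouring pairs. *Hes5*, whose lowest library had 162 FPKM, was apart from *Dll1*, whose highest had 128 FPKM. *Hes1* was apart from *Notch3*, *Notch2* from *Hey1*, and *Hey1* from *Jag1*, although the gap of the last pair was between 18.4 and 18.2 FPKM. From *Dll1* through *Dll3* and *Notch1* to *Hes1* the ranges of neighbours overlapped, and those of *Notch3* and *Notch2* did too. In particular *Dll1* was above *Dll3* in the 2 libraries of A and below it in the 2 libraries of B. The mean levels ran from 289 FPKM for *Hes5* to 12.6 ± 5.20 FPKM for *Jag1* (SD, n = 2).

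By role, the summed level was 362 ± 163 FPKM for the targets, 185 ± 55.5 FPKM for the ligands and 119 ± 31.2 FPKM for the receptors (SD, n = 2). The order was the same in every library. The targets summed to 476 and 479 FPKM in A and 271 and 223 FPKM in B, the ligands to 228 and 219 FPKM in A and 172 and 119 FPKM in B, and the receptors to 156 and 127 FPKM in A and 93.1 and 101 FPKM in B. Within a library the ligands were between 1.17 and 1.85 times the receptors, without a split between A and B. The targets were 3.06 and 3.78 times the receptors in A1 and A2 and 2.91 and 2.21 times in B1 and B2. The sum of the targets was mostly *Hes5*.

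**Figure D2:**
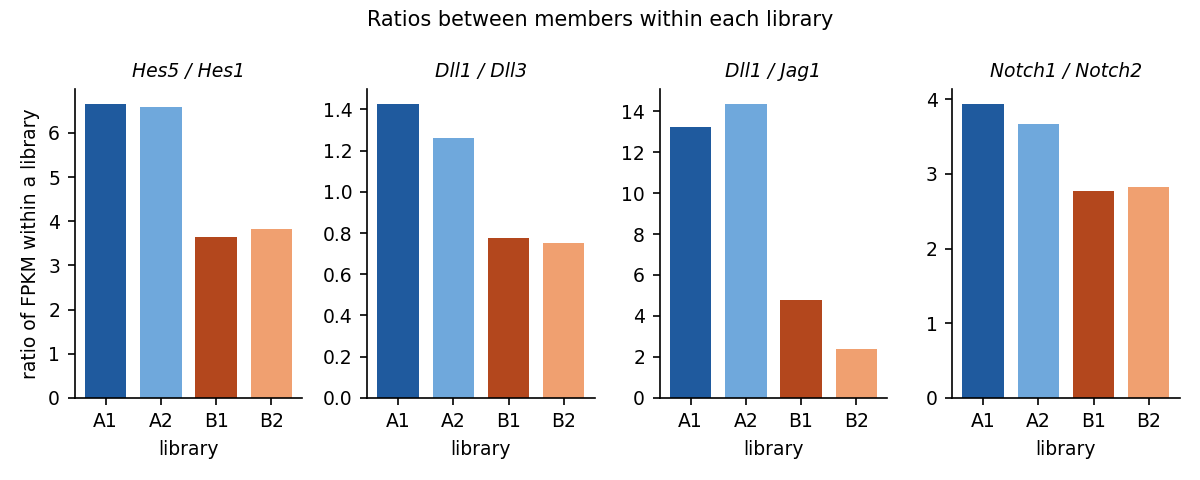
Ratio of the FPKM of named members within each RNA-seq library (bars, from 0), for the libraries A1, A2, B1 and B2. In each panel both libraries of A lie above those of B, as for *Hes5* to *Hes1* with 6.66 and 6.58 in A against 3.65 and 3.83 in B.

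Of the 9 members, 7 were higher in all libraries of A than in those of B, *Jag1* was lower in A, and *Hey1* overlapped. A separation of the libraries was common among the 10481 genes that reached the minimum level, of which 32.0% were higher in A without overlap, 28.1% higher in B and 60.1% either. With a log2 difference of at least 1 required as well, *Dll1* and *Hes5* remained, both higher in A. Among all genes 1.57% were so in favour of A, 4.58% in favour of B and 6.15% in either direction. The median difference of the 9 members was 0.36 towards A, beside 0.03 over all 10481 genes. The members were chosen with earlier results of these data known, so this contrast is not independent of the data. Replicate A had less RNA of the mural and mesenchymal markers (sums of 1337 and 1419 against 3041 and 4267 FPKM), and 6 of the 8 that reached a mean of 1 FPKM passed the same threshold in favour of B. Of the 7 measured progenitor markers, *Fabp7* alone passed it, in favour of A. *Sox2* was also higher in A without overlap, with 558 and 592 FPKM in A1 and A2 and 406 and 356 FPKM in B1 and B2, and the other 5 overlapped, 4 of them with a higher mean in B. Without *Fabp7* the progenitor markers summed to 3696 and 4031 FPKM in A1 and A2 and 3285 and 5123 FPKM in B1 and B2, so these sums, of which *Vim* made up the most, overlapped. Of the neuron markers, *Dcx*, *Map2*, *Rbfox3* and *Syt1* were higher in A without overlap, by between 1.38-fold for *Rbfox3* and 2.20-fold for *Syt1*, and the median over the 6 that reached a mean of 1 FPKM was 0.45 towards A on the log2 scale. The other 3 overlapped, *Tubb3* with 117 and 134 FPKM in A1 and A2 and 105 and 118 FPKM in B1 and B2, and *Stmn2* and *Nefl* with a higher mean in B. *Pdgfra*, on the oligodendrocyte lineage list and also expressed by mesenchymal cells, passed the threshold in favour of B, with 9.50 and 9.09 FPKM in A1 and A2 and 59.5 and 59.4 FPKM in B1 and B2. The part of these markers in the differences of *Dll1*, *Hes5* and *Jag1* was not tested.

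**Figure D3:**
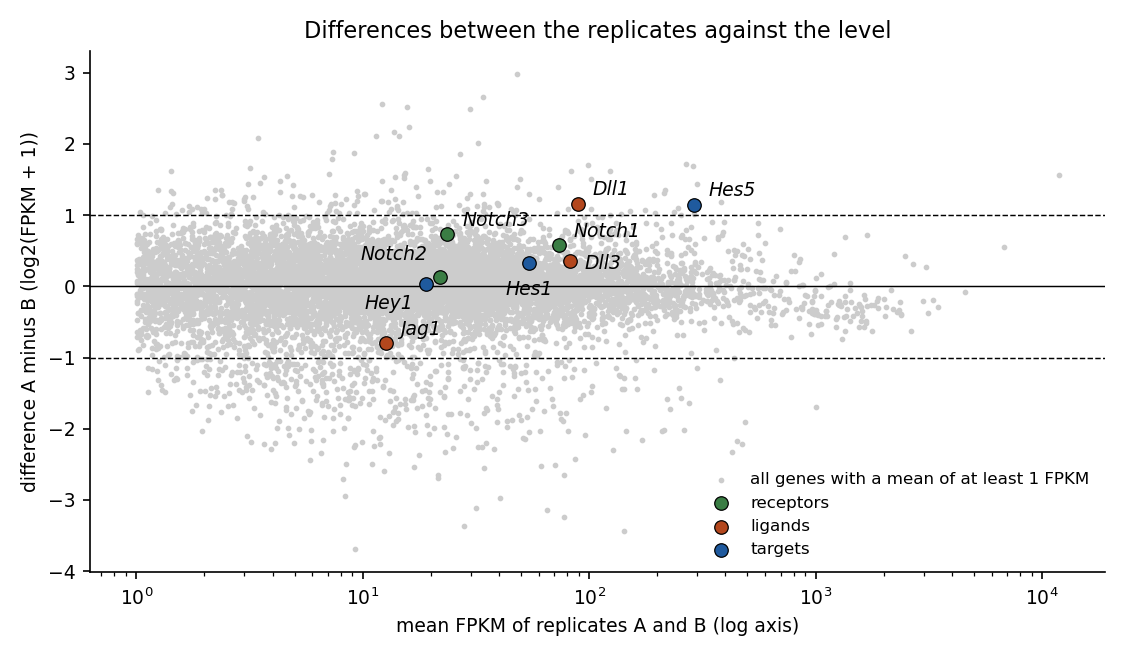
Difference between replicates A and B on the log2(FPKM + 1) scale (above 0 is higher in A) against the mean FPKM (log axis), for 10481 genes (grey) and the 9 members (coloured by role). *Dll1* at 1.16 and *Hes5* at 1.15 lie above the dashed line at 1, and *Jag1* at -0.79 lies lowest of the members.

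The other genes of the pathway were taken from lists by role, of which 50 of 59 genes, the proneural genes included, had a row and 42 reached a mean of 1 FPKM. Of these 42, 14 were higher in A without overlap, 11 were higher in B and 17 overlapped, and their median difference was -0.0047 on the log2(FPKM + 1) scale. A separation was thus found for 59.5% of them, beside 60.1% of all genes. A difference of at least 1 without overlap was found for *Nrarp*, higher in A, and for *Dlk1*, higher in B, which is 4.76% of the 42 beside 6.15% of all genes. Both shares were near those of all genes. *Nrarp*, a Notch target that encodes a feedback inhibitor of the pathway, had 44.3 and 46.5 FPKM in A and 31.0 and 14.7 FPKM in B. Its difference of 1.05 was about as large as the 1.03 between B1 and B2, and with B2 left out it was 0.54. *Dlk1*, which encodes a Delta-like protein without the domain that binds Notch in the usual way, had 29.0 and 32.5 FPKM in A and 157 and 105 FPKM in B, a difference of 2.03 in favour of B.

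*Notch4* and *Dll4*, the remaining receptor and Delta-like ligand, are best known from blood vessels. *Notch4* had 2.51 and 2.79 FPKM in A and 1.05 and 1.20 FPKM in B, and its locus overlaps *C4a* and *Stk19* on the other strand, whose reads may be mixed with its own where strand was not used. *Dll4* had 7.28, 7.26 and 7.38 FPKM in A1, A2 and B2 and 15.5 FPKM in B1. The 8 endothelial markers were each below a mean of 1 FPKM. *Dlk2* had a mean of 0.701 FPKM.

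Among the remaining Hes and Hey genes, *Hes6*, whose product opposes Hes1 and favours neurogenesis, was near *Hes5* in level. It had 286 and 295 FPKM in A1 and A2 and 265 and 174 FPKM in B1 and B2. The ratio of *Hes5* to *Hes6* was 1.39 and 1.36 in A and 0.746 and 0.932 in B, so that *Hes5* was the higher of the pair in A and *Hes6* in B. *Hes2* was listed at 0 in all 4 libraries.

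Next came the genes that modify and cut the receptors. Of 5 genes for glycosylation of the receptors, *Lfng*, a Fringe sugar transferase, was highest at 55.4 ± 4.05 FPKM (SD, n = 2). *Pofut1*, which adds the first fucose, was lowest at 4.04 ± 0.164 FPKM. Of 9 cleavage genes *Psenen*, a subunit of gamma-secretase, was highest at 282 ± 39.0 FPKM and *Psen2*, one of its catalytic presenilins, was lowest at 6.28 ± 0.586 FPKM. Within both lists the difference farthest from 0 was 0.88 for *Mfng*, another Fringe gene, in favour of A. Of these 14 genes 0 were counted as differing, beside 6.15% of all genes. Among 4 ubiquitin ligase genes for the ligands, *Mib2* had 46.0 ± 1.61 FPKM and *Neurl1b* 0.0700 ± 0.0140 FPKM.

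In the nuclear complex, *Snw1*, a coactivator that also works in splicing and whose locus overlaps *Slirp*, had 71.3 ± 4.06 FPKM and *Maml3*, a Mastermind coactivator, 0.647 ± 0.0427 FPKM (SD, n = 2). All 3 genes of this list that reached a mean of 1 FPKM, *Rbpj*, *Maml1* and *Snw1*, were higher in B without overlap, as 28.1% of all genes were, by between 0.11 and 0.21 on the log2 scale. The difference of *Rbpj*, 0.18, was smaller than the 0.21 between B1 and B2, and that of *Maml1*, 0.21, was close to its 0.20 between B1 and B2. Of 7 corepressor genes *Ctbp1* was highest at 157 ± 14.7 FPKM and *Tle2*, a Groucho partner of Hes proteins, lowest at 6.53 ± 0.405 FPKM. Of the inhibitors and turnover genes *Dtx3* was highest at 71.0 ± 1.90 FPKM and *Itch*, a ubiquitin ligase, lowest at 5.23 ± 0.369 FPKM.

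Among the proneural genes, *Neurod4* had 1.75 and 1.95 FPKM in A and 1.06 and 0.988 FPKM in B. *Neurog1* had a mean of 0.449 FPKM and *Neurod1* of 0.292 FPKM.

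**Figure D4:**
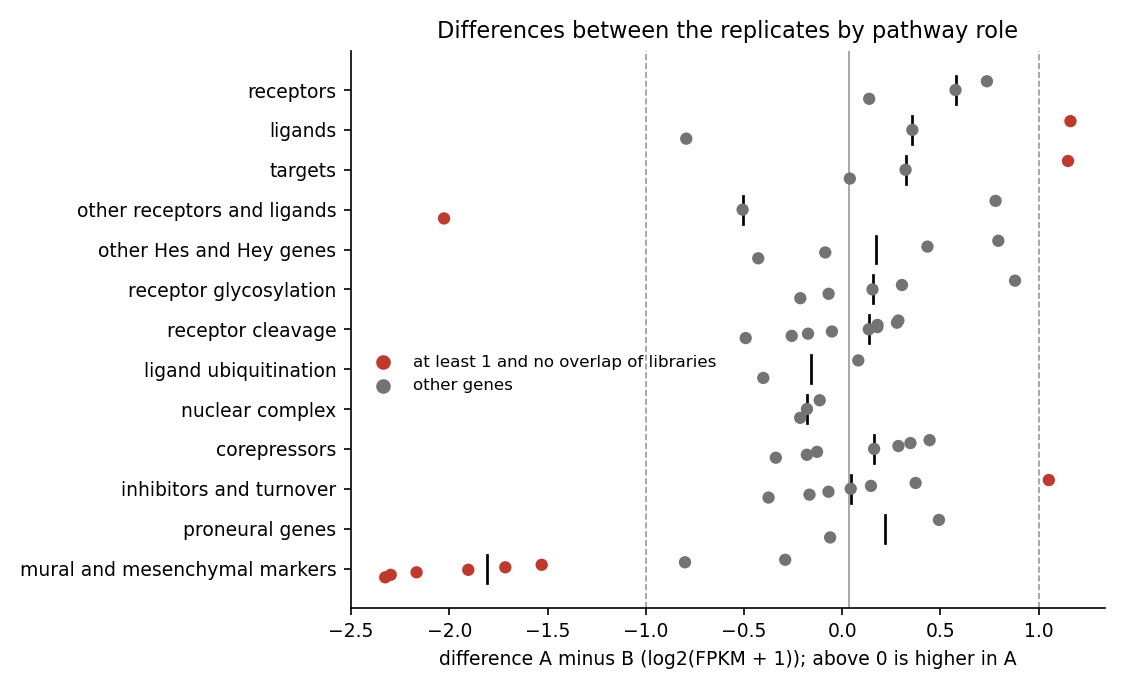
Difference between replicates A and B on the log2(FPKM + 1) scale for each gene that reached a mean of 1 FPKM (points), by pathway role and for the mural and mesenchymal markers, with the median of each list (black line), the median of all genes (grey line) and dashed lines at 1 and -1. Red points are genes with a difference of at least 1 and no overlap, which in the pathway are *Dll1*, *Hes5*, *Nrarp* and *Dlk1*.

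The profile of *Hes5* over the 4 libraries was compared with those of the 6636 genes that reached a mean of 10 FPKM, as the Euclidean distance of log2(FPKM + 1) values centred on each gene. Among the nearest were *Gpm6a*, which encodes a membrane glycoprotein of neurons, at a distance of 0.127 and *Rps6ka5*, a kinase gene, at 0.132. *Gpm6a* had 230.4 and 249.5 FPKM in A and 120.04 and 106 FPKM in B. Of the members *Dll1* was nearest to *Hes5*, at place 29 with a distance of 0.287, and *Jag1* was farthest, at place 6286. For *Notch1* the nearest genes were *Rab36* at 0.0306, *Proser1* at 0.0475 and *Prodh* at 0.0588. With 4 libraries from 2 cultures, such profiles hold little more than the difference between A and B.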

How the data were processed

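The authors aligned polyA RNA-seq reads to rn6 with STAR and deposited a table per library with the mean coverage, FPKM and TPM of each reference gene. The tables are laid out as StringTie writes them. The authors' methods give Rsubread and DESeq2 for the FPKM. Versions are not given in the sources used here. Coverage as deposited is not scaled for depth. FPKM as deposited was used throughout, and the TPM deposited by the authors served as an alternative. Values were summed by gene name, and every listed gene had 1 locus. Technical libraries were averaged within replicates A and B, as the labels group them (column names in a list supplied with the study could be read as pairing A1 with B1), and the SD is over these (n = 2), so it covers the spread of 2 cultures. Total read numbers were not used.

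Genes were counted as differing where the mean reached 1 FPKM, the replicate means of log2(FPKM + 1) were 1 or more apart and the libraries of A and B did not overlap. The added 1 makes the change of low genes look smaller. No p-value was computed. The counting was also run on simulated data, but no outcome is reported here and nothing is drawn from it. The members and lists were chosen with earlier results of these data known. Named genes are the members, the highest, the lowest and the counted genes of each pathway list, *Notch4*, *Dll4*, the proneural genes, the highest marker of each list and the 3 nearest profiles of *Hes5* and *Notch1*. Other names, such as *Rbpj*, *Maml1*, *Mfng*, *Sox2*, *Rgs5*, *Pdgfra* and the further neuron markers, were added after their values were seen. Some results that this rule covers are not reported here. Promoters came from RefSeq (GRCr8) by symbol, for 9 of the 10 genes, all but *Hey1*. Python 3.11.15, pandas 2.3.3, numpy 2.4.6 and matplotlib 3.10.9 were used.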

Additional observations from a re-analysis of the deposited data

Results flagged for a closer look

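Over the 4 libraries, 29 quantities were examined for a library far from the rest, that is, with a wide gap to the closest other library relative to the whole range. They were the members, the other named pathway and proneural genes of at least 1 FPKM and the sums by role. Such a library was found for 3, and chance gives about 1 in 20 for independent samples, which technical pairs are not. *Dll3* had 57.4 FPKM in B2 and 88.7 to 93.3 FPKM in the others. *Notch2* had 24.9 FPKM in A1 and 20.8 to 21.4 FPKM in the others. *Dll4* had 15.5 FPKM in B1 and 7.26 to 7.38 FPKM in the others.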

How the results depend on the processing

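No paired analysis was possible because all RNA-seq libraries are of the same condition. As TPM, the sums were 201 for receptors, 311 for ligands and 611 for targets, a change of unit. With 1 replicate left out, the sums ranged from 97.0 to 141 FPKM for receptors, 145 to 224 FPKM for ligands and 247 to 478 FPKM for targets, and the neighbouring members with separate ranges from 3 to 7, against 4, with fewer libraries in each range. The members counted as differing numbered 4 at a log2 difference of at least 0.58 (*Notch3* and *Jag1* added) and 1 (*Hes5*) without B2, against 2, while 16.5% of all genes were counted at 0.58 and 573 of 10413 without B2, against 6.15%. The other pathway genes numbered 5 at 0.58, 1 without B2, 4 without B1 (8.47% of all genes) and 3 with a pseudocount of 0.1 (*Notch4* added, 8.53% of all genes), against 2. The cause was not tested. Leaving out A1, A2 or B1 was chosen after seeing the data. *Dll1* and *Hes5* were counted under a pseudocount of 0.1, TPM, median-of-ratios scaling, both other filters, and without A1, A2 or B1. *Hey1* turned to -0.026 without A1.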
